A study of Mus musculus with 6 samples.

Results

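The genes described here are 10 mouse genes that carry a germ cell into meiosis and through recombination: Stra8, Meioc, Spo11, Prdm9, Hormad1, Hormad2, Dmc1, Meiob, Msh4 and Msh5. They were chosen by name out of 49203 named genes in the transcript tables, and all 10 were present, with 56 annotated transcripts between them. The libraries were made from Sertoli cells, which line the seminiferous tubule, nurse germ cells and do not themselves enter meiosis. Total RNA was sequenced from 3 GFP-positive libraries (2, 4 and 7, labelled green) and 3 GFP-negative libraries (9, 11 and M, labelled non-green), the GFP being a reporter of the Y chromosome. The labels describe both groups as Sertoli cell lines and give no treatment, genotype beyond the reporter, passage or origin of the lines. Since no label says that libraries of a group are separate cultures or animals, each p-value refers to the spread among these 6 libraries, and that spread may be technical.

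Meiosis begins when retinoic acid and other signals switch on STRA8, after which MEIOC and its partner YTHDC2 keep the meiotic programme of transcripts in place. SPO11 then cuts the chromosomes at sites that PRDM9 marks by methylating histones, on a protein axis that carries HORMAD1 and HORMAD2. DMC1 and MEIOB work on the single strands left by the cuts, and the MSH4 and MSH5 pair holds recombination intermediates that can mature into crossovers. In somatic cells most of these genes are kept silent, in part by repressors that bind E2F-type and E-box motifs in their promoters and by DNA methylation.

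Levels are FPKM, the authors' fragments per kilobase of transcript relative to library depth, summed over the annotated transcripts of a gene and scaled between libraries. FPKM is a level per length, so it can also be set side by side between genes. Differences are GFP-positive minus GFP-negative on the log2(scaled FPKM + 0.5) scale, which understates the change of genes this low. They were tested with limma over the 15095 genes and unnamed loci with a mean of at least 0.5 scaled FPKM, and a gene was called at an adjusted p under 0.05. For a single gene the exact two-sided permutation test of 3 against 3 libraries cannot give a p below 0.1.

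Most values of the 10 genes were low, with peaks of 10.9 scaled FPKM for Stra8 (GFP-positive 7) and 6.37 for Hormad1 (GFP-positive 2). Of the 10, Hormad1 alone passed the test. In the GFP-positive libraries 5 of the 10 had a mean of at least 0.5 scaled FPKM, namely Stra8, Hormad1, Msh5, Meioc and Prdm9. In the GFP-negative libraries only Prdm9 did. The difference was positive for 9 genes and negative for Prdm9, though Msh4 also turned negative (-0.03) when every library was given an equal sum of FPKM. Stra8, Hormad1, Msh5 and Prdm9 passed the filter and were tested. Hormad1 was called, which is 1 of 4, while 25.9% of all tested genes were called in either direction and 14.4% were called higher. The split over all tested genes was 2181 higher and 1729 lower, and 542 higher and 6441 lower with an equal sum of FPKM in every library. At 1 of 4 the share of calls is close to that of all tested genes. Every GFP-positive library stood above every GFP-negative one for Hormad1, Meioc and Spo11, which is 3 of 10, against 14.4% of all genes with a value above 0. The median difference over all 10 was 0.51 and over all tested genes 0.02.

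**Figure D1:**
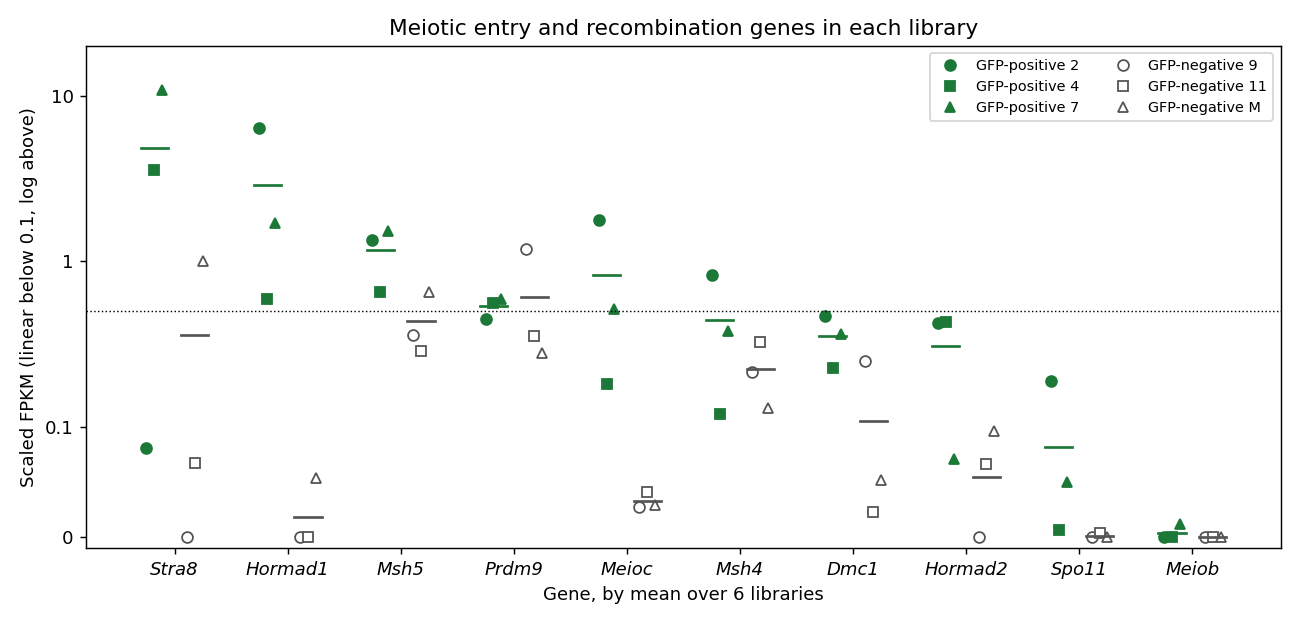
Scaled FPKM of the 10 genes in each of the 6 libraries, on an axis that is linear below 0.1 and logarithmic above. Filled green symbols are GFP-positive and open grey symbols GFP-negative libraries, short bars are group means and the dotted line is the filter of 0.5 on the mean over 6 libraries. Stra8 reaches 10.9 in GFP-positive 7 and lies at 0.0810 in GFP-positive 2, whereas Hormad1 and Meioc are highest in GFP-positive 2 and near 0 in every GFP-negative library.

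The sequences just upstream of 3 of the tested genes are shown first because they carry, or lack, the short motifs through which this class of genes is known to be held silent or switched on. They are RefSeq promoter windows of the GRCm38.p6 build, 250 bases ending at the base before the annotated start, whereas all gene coordinates given further on are those of the deposited tables (mm39). Capitals mark CACGTG (an E-box, its own reverse complement), GGCGGGAA (an E2F-type site, either strand) and AGGTCA (a hexamer bound by nuclear receptors such as those for retinoic acid, either strand). None of these motifs overlap in the windows shown.
Hormad1, chr3:95559427-95559676, plus strand: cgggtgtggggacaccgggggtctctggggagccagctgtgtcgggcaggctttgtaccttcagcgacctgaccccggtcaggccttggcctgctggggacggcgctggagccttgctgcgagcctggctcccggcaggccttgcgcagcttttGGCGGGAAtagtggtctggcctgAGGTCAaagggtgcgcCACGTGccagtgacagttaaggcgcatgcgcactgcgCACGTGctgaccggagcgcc
Stra8, chr6:34920698-34920947, plus strand: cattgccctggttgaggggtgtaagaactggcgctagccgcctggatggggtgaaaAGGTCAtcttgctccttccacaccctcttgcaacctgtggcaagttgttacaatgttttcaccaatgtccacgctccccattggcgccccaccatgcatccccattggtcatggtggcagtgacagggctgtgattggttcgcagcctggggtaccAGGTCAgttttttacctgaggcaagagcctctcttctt
Msh5, chr17:35046623-35046872, minus strand: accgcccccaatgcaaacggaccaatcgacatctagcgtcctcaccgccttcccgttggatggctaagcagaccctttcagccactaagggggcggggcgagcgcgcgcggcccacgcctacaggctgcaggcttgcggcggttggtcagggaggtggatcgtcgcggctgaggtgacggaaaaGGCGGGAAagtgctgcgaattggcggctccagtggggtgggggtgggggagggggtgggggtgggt

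The Hormad1 window holds 2 CACGTG, whose first bases lie at -57 and -20 from the start, 1 GGCGGGAA at -96 and 1 AGGTCA at -73. Among 27025 mouse genes with such a window, 6.86% hold at least 1 CACGTG and 0.4995% at least 2, and 2.128% hold GGCGGGAA. The Stra8 window holds neither of those but has 2 AGGTCA, at -194 and -38, which 1.525% of genes match, while 15.76% have at least 1. Msh5 has 1 GGCGGGAA at -66. Windows were found for 8 of the 10 genes, all but Spo11 and Meiob. Among the 8 windows, CACGTG occurred in Hormad1 alone, and GGCGGGAA in Hormad1, Msh5 and, in the second of its 2 windows, Prdm9. The windows of Msh5 and Hormad1 hold 22 and 19 CpG dinucleotides and that of Stra8 holds 5, against a median of 6 over all genes. That of Meioc also holds 22 and has none of the motifs. CACGTG and GGCGGGAA each contain a CpG, and the shares above are over all genes, not over windows as rich in CpG. A match is only a run of letters and says nothing about what bound there.

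Stra8 encodes the retinoic-acid-responsive nuclear protein that commits germ cells to meiosis (chromosome 6, 34897098 to 34916279, plus strand). It stood at 0.0810, 3.57 and 10.9 scaled FPKM in GFP-positive 2, 4 and 7, against 0, 0.0673 and 1.01 scaled FPKM in GFP-negative 9, 11 and M. Its level was thus high in 2 GFP-positive libraries, intermediate in GFP-negative M and close to nil in the other three, and the groups overlapped. The means were 4.84 ± 5.50 scaled FPKM in GFP-positive and 0.359 ± 0.565 in the GFP-negative ones (SD, n = 3 each). The log2 difference of 1.99 (SE 0.95) did not pass in limma (adjusted p = 0.144), and its 95% interval ran from -0.17 to 4.15. Without GFP-positive 2, where Stra8 was lowest among the GFP-positive libraries, the difference was 3.18 and passed (limma adjusted p = 0.0213). Without GFP-positive 7, where it was highest, the difference was 1.05 and did not pass (limma adjusted p = 0.404). Stra8 passed under 2 of the 17 alternatives.

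Different annotated isoforms made up Stra8 in different libraries. The 9-exon transcript of 1457 nt held 66.9% and 84.3% of the gene's FPKM in GFP-positive 4 and 7 and was listed at 0 in the other four libraries. The 8-exon transcript of 1209 nt held 31.3% and 12.3% in GFP-positive 4 and 7, and 91.4% in GFP-negative M. In GFP-positive 2 and GFP-negative 11, where 1818 and 1089 aligned bases fell on the gene, all of it was given to the 10-exon transcript of 1803 nt. GFP-positive 7 had 173433 aligned bases on Stra8, so the isoform shares there rest on far more sequence.

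Meioc, whose protein acts with the RNA helicase YTHDC2 in meiotic entry (chromosome 11, 102554542 to 102573063, plus strand), followed another order of libraries. It stood at 1.78, 0.181 and 0.518 scaled FPKM in GFP-positive 2, 4 and 7, against 0.0275, 0.0413 and 0.0295 scaled FPKM in GFP-negative 9, 11 and M. The groups did not overlap, and the GFP-negative libraries were alike. The means were 0.827 ± 0.845 in GFP-positive and 0.0328 ± 0.00742 scaled FPKM in the GFP-negative ones, a log2 difference of 1.13. The mean over all 6 libraries was 0.430, below the filter, and the exact permutation p was 0.1, the smallest possible. Tested with no filter, it did not pass (limma adjusted p = 0.185). A single 8-exon transcript of 4573 nt held 98.8%, 85.3% and 97.8% of Meioc in GFP-positive 2, 4 and 7 and all of it in the GFP-negative libraries.

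Spo11, which encodes the catalytic subunit that makes meiotic double-strand breaks (chromosome 2, 172819493 to 172835369, plus strand), was barely detected. It had 0.189, 0.00645 and 0.0497 scaled FPKM in GFP-positive 2, 4 and 7, against 0, 0.00357 and 0 scaled FPKM in GFP-negative 9, 11 and M. The groups did not overlap, yet the value in GFP-positive 4 rests on 253 aligned bases and that in GFP-negative 11 on 116. The gene was below the filter, with an exact permutation p of 0.1. In GFP-positive 2, 53.8% of its FPKM lay on an 8-exon transcript of 3624 nt and 46.2% on a 13-exon transcript of 1709 nt. An unnamed single-exon transcript on the same strand lay inside the Spo11 span and was more abundant than Spo11 itself. It is given in the closing observations, and counting it as Spo11 would bring the gene past the filter and the threshold (log2 difference 1.23, limma adjusted p = 0.0273). The unnamed transcript was picked out because its groups did not overlap, so this p-value is no separate support.

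Prdm9, which encodes the zinc finger histone methyltransferase that places recombination hotspots (chromosome 17, 15763341 to 15784616, minus strand), was the exception to the higher GFP-positive levels. It stood at 0.447, 0.562 and 0.592 scaled FPKM in GFP-positive 2, 4 and 7, against 1.19, 0.354 and 0.279 scaled FPKM in GFP-negative 9, 11 and M. The GFP-positive libraries were even and GFP-negative 9 was the highest of all. The means were 0.534 ± 0.0763 in GFP-positive and 0.609 ± 0.508 scaled FPKM in the GFP-negative ones. The log2 difference was -0.01 (SE 0.35, 95% interval -0.80 to 0.78, limma adjusted p = 0.983), and its sign depended on the processing. The 10-exon transcript of 3460 nt was at 0.243, 0.0344 and 0.181 scaled FPKM in GFP-positive 2, 4 and 7, against 0.315, 0.181 and 0.209 in GFP-negative 9, 11 and M. The excess in GFP-negative 9 lay mostly on a 5-exon transcript of 666 nt, at 0.557 scaled FPKM, which held 46.7% of the gene there. How the authors' assembly used strand is not stated in the labels or file headers, and 2 transcripts of the opposite strand overlap Prdm9, at no more than 0.0775 FPKM as deposited.

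Hormad1 encodes a HORMA-domain protein of unsynapsed chromosome axes that is needed for normal break formation (chromosome 3, 95466988 to 95494982, plus strand). It stood at 6.37, 0.591 and 1.70 scaled FPKM in GFP-positive 2, 4 and 7, against 0, 0 and 0.0537 scaled FPKM in GFP-negative 9, 11 and M. Every GFP-positive library was above every GFP-negative one, with GFP-positive 2 well above the other two. The means were 2.89 ± 3.06 scaled FPKM in GFP-positive and 0.0179 ± 0.0310 in the GFP-negative ones. Hormad1 rose by 2.30 on the log2 scale (SE 0.58, 95% interval 0.98 to 3.62, limma adjusted p = 0.0239). It passed the filter only through the GFP-positive libraries, so among genes that passed it could hardly have shown no difference. The aligned bases on Hormad1 numbered 117205, 9516 and 28449 in GFP-positive 2, 4 and 7 and 668 in GFP-negative M.

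Hormad1 was no longer called without GFP-positive 7 (limma adjusted p = 0.0718), GFP-negative 11 (0.0547) or GFP-negative M (0.0855). The same held with no filter (0.104) and after removal of a trend in transcript length (log2 difference 1.88, limma adjusted p = 0.0673). Without GFP-positive 2 its mean lay below the filter, with a log2 difference of 1.58. The 15-exon transcript of 1464 nt held 69.2%, 55.4% and 17.9% of Hormad1 in GFP-positive 2, 4 and 7. A 16-exon transcript of 1519 nt held 29.5% and 44.6% in GFP-positive 2 and 4 and was at 0 in GFP-positive 7, where another 16-exon transcript, of 1511 nt, held 82.1%.

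**Figure D2:**
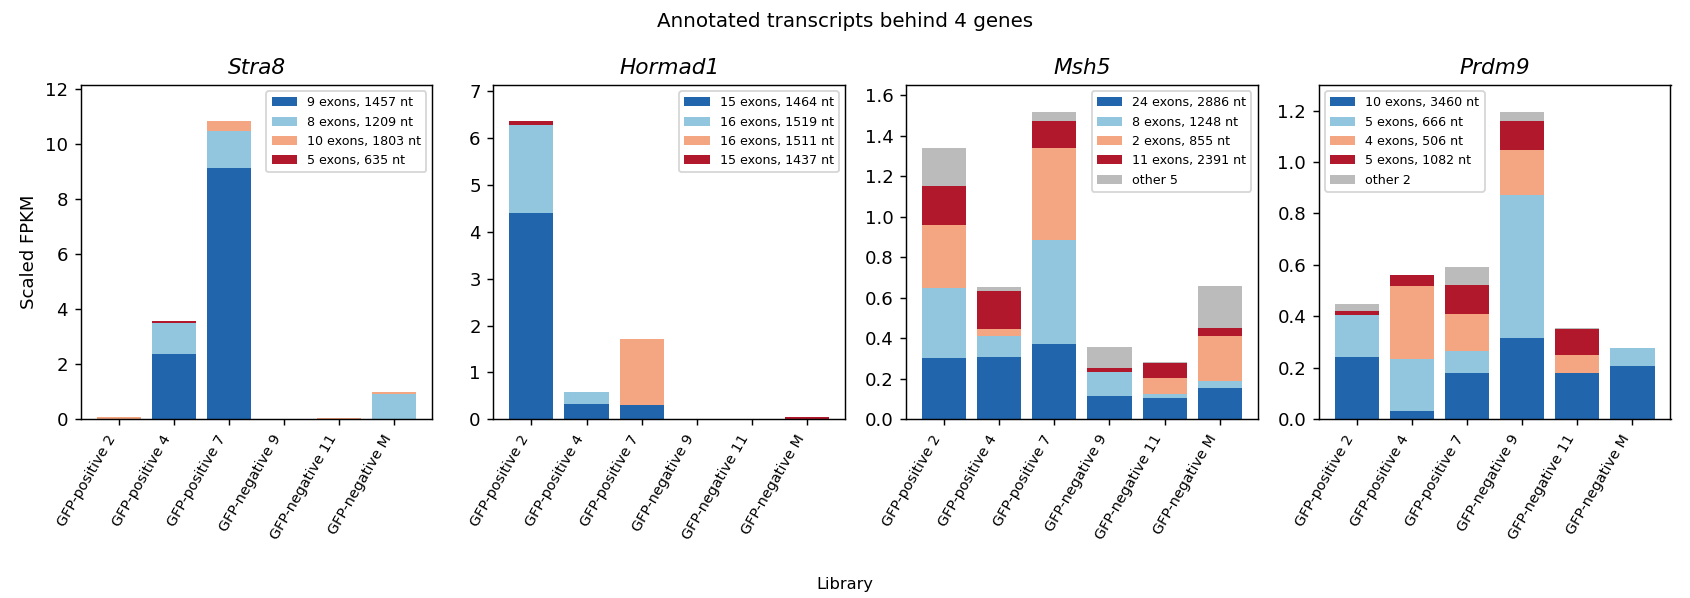
Scaled FPKM of each annotated transcript of Stra8, Hormad1, Msh5 and Prdm9 (the 4 tested genes), stacked per library, GFP-positive libraries to the left of GFP-negative ones. The tall Stra8 bars of GFP-positive 4 and 7 are mostly the 9-exon transcript, that of GFP-negative M is mostly the 8-exon one, and the excess of Prdm9 in GFP-negative 9 is mostly the 5-exon transcript of 666 nt.

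Hormad2, the partner of Hormad1 on the axis (chromosome 11, 4295814 to 4391105, minus strand), was lower and overlapped between groups. It stood at 0.425, 0.429 and 0.0710 scaled FPKM in GFP-positive 2, 4 and 7, against 0, 0.0665 and 0.0961 scaled FPKM in GFP-negative 9, 11 and M. GFP-positive 7, second highest for Hormad1, was here within the range of the GFP-negative libraries. In GFP-positive 2 and 4 most of the level lay on a 5-exon transcript of 583 nt, 53.4% and 55.9%. The gene was below the filter (log2 difference 0.51, exact permutation p = 0.2).

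Dmc1, which encodes the recombinase that pairs a broken strand with the homologue (chromosome 15, 79445698 to 79489310, minus strand), stood at 0.470, 0.227 and 0.363 scaled FPKM in GFP-positive 2, 4 and 7. In GFP-negative 9, 11 and M it stood at 0.250, 0.0231 and 0.0518 scaled FPKM. GFP-negative 9 lay within the GFP-positive range and the other two GFP-negative libraries below it. The full 14-exon transcript held 65.8%, 100% and 75.8% of Dmc1 in GFP-positive 2, 4 and 7, against 53.4%, 100% and 100% in GFP-negative 9, 11 and M. Dmc1 was below the filter (log2 difference 0.50, exact permutation p = 0.2). Meiob, whose protein binds single-stranded DNA at recombination sites (chromosome 17, 25023263 to 25058762, plus strand), was listed at 0 in 5 libraries. GFP-positive 7 gave it 0.0124 scaled FPKM from 244 aligned bases.

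Msh4 and Msh5 encode the partners of one heterodimer, but their levels did not run in parallel. Msh4 (chromosome 3, 153562786 to 153611775, minus strand) stood at 0.823, 0.119 and 0.380 scaled FPKM in GFP-positive 2, 4 and 7, against 0.215, 0.324 and 0.131 scaled FPKM in GFP-negative 9, 11 and M. GFP-positive 4 was the lowest of all 6 libraries, and the groups overlapped. Msh4 was below the filter (log2 difference 0.32, exact permutation p = 0.5). Its 20-exon transcript held 57.8%, 74.0% and 71.4% of the gene in GFP-positive 2, 4 and 7, against 57.0%, 56.4% and 56.9% in GFP-negative 9, 11 and M.

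Msh5 (chromosome 17, 35247581 to 35265721, minus strand) stood at 1.34, 0.654 and 1.52 scaled FPKM in GFP-positive 2, 4 and 7, against 0.359, 0.286 and 0.657 scaled FPKM in GFP-negative 9, 11 and M. The highest GFP-negative library, M, was level with the lowest GFP-positive one. The means were 1.17 ± 0.456 scaled FPKM in GFP-positive and 0.434 ± 0.196 in the GFP-negative ones. The log2 difference of 0.82 (SE 0.32, 95% interval 0.09 to 1.55) did not pass (limma adjusted p = 0.0878), and the exact permutation p was 0.2. The full-length 24-exon transcript of 2886 nt, looked at after its values were seen, was the evenest component. It stood at 0.302, 0.308 and 0.374 scaled FPKM in GFP-positive 2, 4 and 7, against 0.115, 0.106 and 0.154 in GFP-negative 9, 11 and M, with no overlap. Shorter transcripts made up the rest, among them an 8-exon one of 1248 nt at 0.348, 0.104 and 0.510 scaled FPKM in GFP-positive 2, 4 and 7.

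By mean over the GFP-positive libraries the order of levels was Stra8 (4.84 scaled FPKM), Hormad1 (2.89), Msh5 (1.17), Meioc (0.827), Prdm9 (0.534), Msh4 (0.440), Dmc1 (0.353), Hormad2 (0.308), Spo11 (0.0817) and Meiob (0.00413). The SD over libraries exceeded the mean for Stra8, Hormad1, Meioc, Spo11 and Meiob, and no neighbours in this order were separated beyond their spread (mean ± SD). By mean over the GFP-negative libraries Prdm9 (0.609 scaled FPKM) and Msh5 (0.434) led, followed by Stra8 (0.359), and these 3 lay within their spread. The order of the 3 GFP-positive libraries was not the same for all. Hormad1, Meioc, Spo11, Dmc1 and Msh4 stood highest in GFP-positive 2, next in 7 and lowest in 4. Stra8 and Prdm9 had the reverse order of 2 and 7, with 4 in between.

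The library profiles most like that of Hormad1 included 2 germ cell genes. Over the 6 libraries, on the log2 scale and among 11833 tested genes with ordinary symbols, the profile most like it was that of Ddx25, which encodes an RNA helicase of germ cells (Pearson r 0.999). Sycp3, which encodes a lateral element protein of the synaptonemal complex, followed (r 0.998), with Il1r2, an interleukin-1 decoy receptor gene (r 0.998). Ddx25 stood at 2.05, 0.393 and 0.775 scaled FPKM in GFP-positive 2, 4 and 7, against 0.0512, 0.0474 and 0.108 in GFP-negative 9, 11 and M. With only 6 points, 3 of them near 0, and so many genes searched, values of r this high are a description of the profile only.

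Stra8 had a different profile, with an r of 0.192 to Hormad1 over the same 6 libraries. Its closest profiles were those of Cklf (r 0.990), Mrpl18 (r 0.984) and Arhgef39 (r 0.974), named although Stra8 was not called. Gata1, which encodes a transcription factor of Sertoli and blood cells and was singled out after its values were seen, shared its high and low libraries. Gata1 stood at 0, 10.01 and 4.92 scaled FPKM in GFP-positive 2, 4 and 7, against 0, 0 and 2.09 in GFP-negative 9, 11 and M. The r between Gata1 and Stra8 was 0.902, although Gata1 was highest in GFP-positive 4 and Stra8 in GFP-positive 7. Rec8, which encodes the meiotic cohesin subunit and is known as a retinoic acid target in germ cells, was at 1.08, 8.84 and 4.48 scaled FPKM in GFP-positive 2, 4 and 7. In GFP-negative 9, 11 and M it stood at 2.80, 0.987 and 2.30 scaled FPKM, and its log2 difference of 0.81 did not pass. The r between Rec8 and Stra8 was 0.749.

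**Figure D3:**
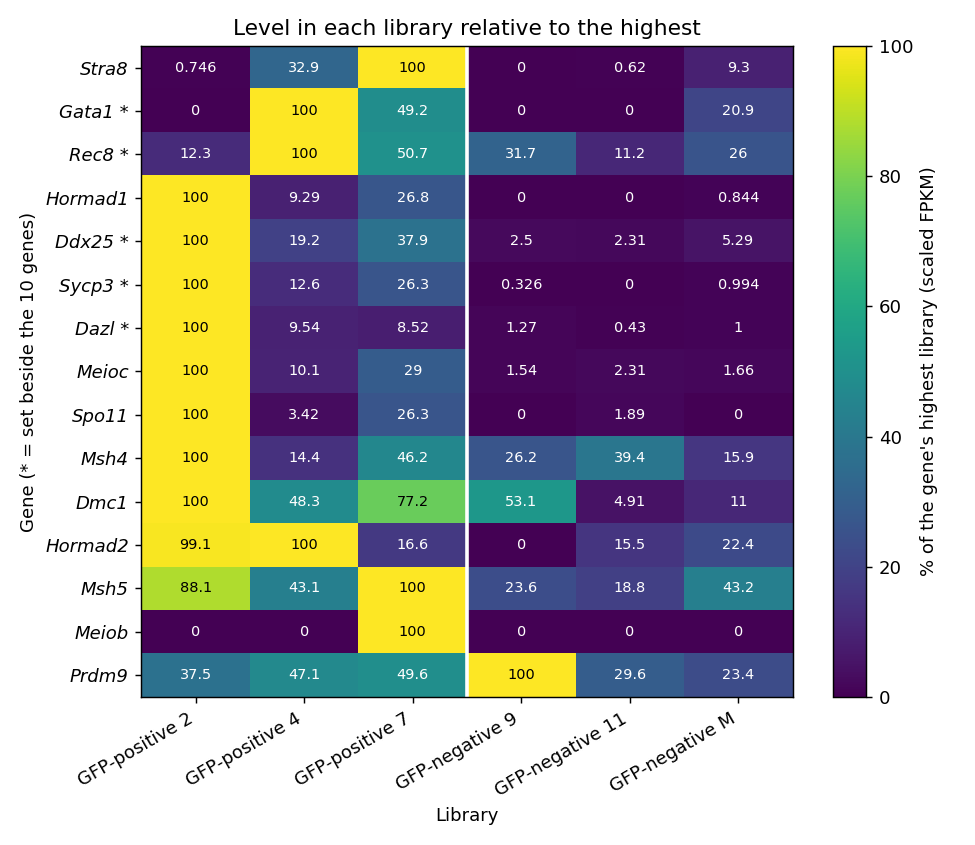
Level of each gene in each library as a percentage of its highest library (scaled FPKM), with the 10 genes and 5 others marked by an asterisk that were set beside them, GFP-positive libraries to the left of the white line. Stra8, Gata1 and Rec8 are low in GFP-positive 2, whereas Hormad1, Ddx25, Sycp3, Dazl, Meioc, Spo11, Msh4 and Dmc1 are highest there.

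Other genes of the pathway were counted in 5 lists by role, 68 genes outside the 10, of which 64 were in the tables and 42 passed the filter. Of these 42, 21 rose in the GFP-positive libraries and 2 fell, and their median log2 difference was 1.09, against 0.02 over all tested genes. With an equal sum of FPKM in every library, which moved the median of all tested genes to -0.87, 13 rose and 7 fell, and their median was 0.24. The filter favoured genes that were high in GFP-positive libraries. Of the 64, 46 had a mean of at least 0.5 scaled FPKM there and 27 did in the GFP-negative libraries. Stag3, Syce1, Syce3, Tex11, Rnf212b, Prr19, Brme1, Rec114, Dazl and Crabp1, named below, had a GFP-negative mean under 0.5 scaled FPKM. They passed the filter only through the GFP-positive libraries and could hardly have shown no difference. Tested without a filter, 6 of 63 rose. GFP-positive 2 was the highest library for 46 of the 64 genes, and 36 had the order GFP-positive 2, 7, 4 that Hormad1 had. The shares of all genes with these traits are not given, so neither is shown to be particular to meiosis genes. The count of rises was 4 without GFP-negative M, 7 without GFP-positive 7 and 14 without GFP-positive 2.

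Chromosome axis and synapsis genes had the highest median among the 5 lists, 2.09 over 10 tested genes, 7 of which rose and none of which fell. Of those that rose, all but Syce2 passed the filter only through the GFP-positive libraries. With no filter 2 of 17 were called higher and the median was 1.11. The count was 2 without GFP-negative M, 3 without GFP-positive 7, 4 without GFP-positive 2 or GFP-negative 11 and 4 with the length trend removed. With an equal sum of FPKM 6 were called higher and 1 lower. Stag3, a meiotic cohesin subunit gene, rose by 2.36 on the log2 scale (SE 0.34, limma adjusted p = 0.00684). It stood at 4.78, 2.04 and 2.29 scaled FPKM in GFP-positive 2, 4 and 7, against 0.130, 0.134 and 0.186 in GFP-negative 9, 11 and M. The synaptonemal complex genes Syce1 (2.49), Syce2 (2.17) and Syce3 (2.47) also rose, whereas Sycp1, which encodes the transverse filament, stayed at or below 0.231 scaled FPKM in every library. Of the crossover genes 4 of 9 tested rose and none fell, whereas 4 were called higher and 3 lower with an equal sum of FPKM. With no filter, or without GFP-negative M, 1 was called higher, and without GFP-positive 7, 2 were. Tex11, an X-linked gene needed for crossovers, rose by 2.88 (SE 0.58, limma adjusted p = 0.0132). Rnf212b (2.57) and Ccnb1ip1 (2.05), which encode RING-domain crossover factors, and Prr19 (1.78), which acts with the cyclin-like CNTD1, rose as well. Mlh3 (-0.36), which acts at late crossovers, did not pass.

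Among strand exchange genes 4 of 5 tested rose and none fell. None was called with no filter, with an equal sum of FPKM, without GFP-positive 7 or without GFP-negative M, 1 was with the length trend removed, and 2 were without GFP-positive 2 or GFP-negative 11. The 4 that rose were Fignl1 (1.39), Psmc3ip (1.56), Brme1 (1.09) and Swsap1 (0.89), which encode regulators and cofactors of strand exchange. Spata22, whose protein works with MEIOB, was listed at 0 in all 6 libraries. Among break and hotspot genes 3 of 7 tested rose and 1 fell. No rise was called without GFP-positive 7, without GFP-negative M, with no filter or once the length trend was taken out, and 1 was with an equal sum of FPKM or without GFP-positive 2, GFP-negative 9 or GFP-negative 11. Rec114, of the break-forming machinery, rose by 2.03 (SE 0.48, limma adjusted p = 0.0200). Zcwpw1, whose protein reads the PRDM9 histone marks, rose by 1.68. Of the genes for the PRDM9-binding proteins CXXC1 and EWSR1, Cxxc1 rose by 0.97 and Ewsr1 fell by 0.89.

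Among meiotic entry genes 3 of 12 tested rose and 1 fell, against 1 higher and 0 lower without GFP-negative M, and 2 higher and 2 lower with an equal sum of FPKM. The list also holds genes of retinoic acid synthesis, binding and reception, and it shares Dmrt1 with the Sertoli markers. Its counts are therefore not those of germ cell genes alone. Dazl, an RNA-binding protein gene that licenses germ cells to respond to meiotic signals, rose by 3.53 (SE 0.80, limma adjusted p = 0.0181). It stood at 49.6, 4.73 and 4.22 scaled FPKM in GFP-positive 2, 4 and 7, against 0.628, 0.213 and 0.496 in GFP-negative 9, 11 and M. Crabp1, a retinoic acid binding protein gene, rose by 2.75 and Dmrt1, a testis transcription factor gene that Sertoli cells also express, by 1.10, whereas the retinoic acid receptor gene Rara fell by 2.39. Rara stood at 0.824, 2.89 and 1.56 scaled FPKM in GFP-positive 2, 4 and 7, against 6.10, 13.1 and 14.2 in GFP-negative 9, 11 and M. Meiosin, which encodes the partner of STRA8 on meiotic promoters, was at or below 0.295 scaled FPKM in every library.

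**Figure D4:**
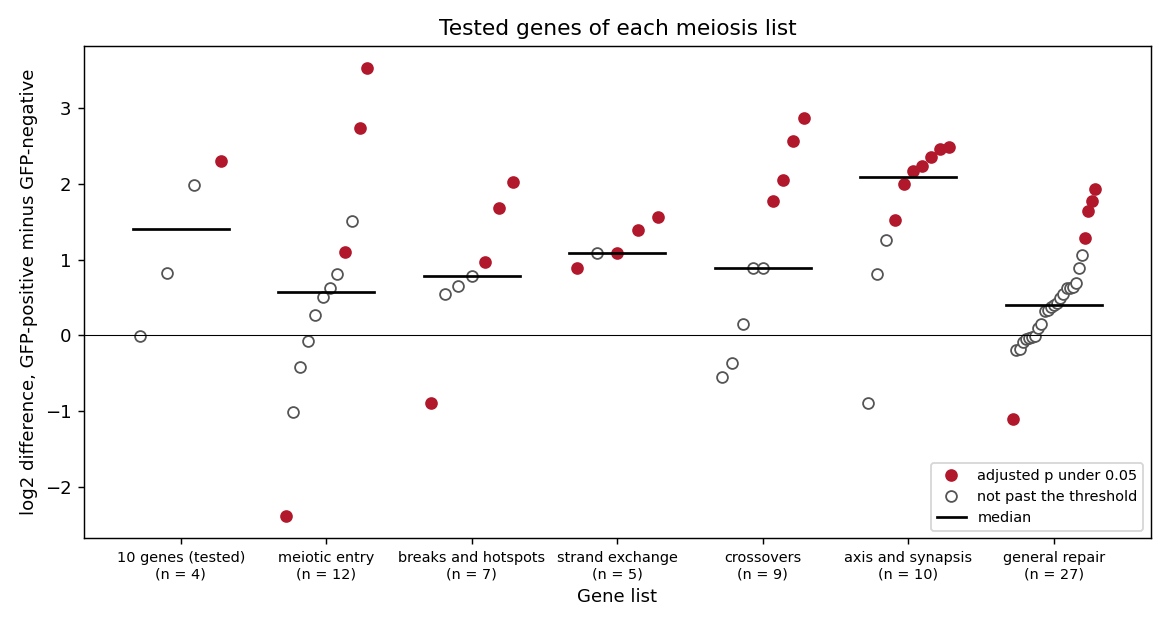
Log2 difference (GFP-positive minus GFP-negative) of every tested gene in the 6 lists of meiosis and repair genes and of the 4 tested genes among the 10, where filled points had a limma adjusted p under 0.05 and bars are medians. The medians are 2.09 for axis and synapsis genes and 0.41 for general repair genes, and only genes that passed the filter are drawn.

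A further list held recombination and repair genes that dividing somatic cells also use. Of 27 tested, 4 rose and 1 fell, and the median was 0.41, against 14.4% called higher and a median of 0.02 over all tested genes. With an equal sum of FPKM 1 was called higher and 2 lower (median -0.53), and 2 were called higher with no filter, as without GFP-positive 7 or GFP-negative 11. With library weights 9 were. Rpa2 (1.78) and Rpa3 (1.94), subunits of the single-strand binding complex, rose. So did Top2a (1.65), which is counted in the proliferation list as well, and Mad2l1 (1.29), a spindle checkpoint gene rather than a repair gene. The mismatch repair gene Msh6 (-1.10) fell, named after its values were seen. Proliferation genes moved in the same direction as the meiosis lists, with 7 of 12 tested higher, none lower and a median of 1.55. By adjusted p the first of them were Ccnb1 (2.55), Ccna2 (2.25), Bub1 (1.84) and Kif11 (1.57). The count was 2 with an equal sum of FPKM (median 0.56), 2 with no filter and 2 without GFP-positive 7.

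Of 18 genes for repressors that hold germline genes silent in somatic cells, none was called higher and 2 fell, and the list's median was 0.04. With an equal sum of FPKM 9 were called lower (median -0.97), with library weights 4 higher and 6 lower, and none without GFP-positive 7, without GFP-negative M or with no filter. Without GFP-negative 9, 2 were called higher and 3 lower. As first fitted, 2 of the 18 were called lower, beside 1729 of all 15095 tested genes. The pair that fell were the DNA methyltransferase gene Dnmt3a (-1.94, limma adjusted p = 0.0120) and the histone demethylase gene Kdm5c (-1.93, limma adjusted p = 0.0128). Dnmt3a stood at 4.86, 4.71 and 3.95 scaled FPKM in GFP-positive 2, 4 and 7, against 9.97, 25.2 and 25.6 in GFP-negative 9, 11 and M. E2f6, which binds the E2F-type motif printed for Hormad1 and Msh5, had a log2 difference of 0.13, and Mga and Max, whose products bind E-boxes, had -0.62 and 0.15, none of which passed.

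Transcript length moved with the group difference across the whole table. Tested genes whose longest transcript was under 1000 nt had a median log2 difference of 0.94, those of 1000 to 2000 nt 0.47, those of 2000 to 4000 nt 0.09 and longer ones -0.44. The shares called higher in these classes were 40.6%, 23.9%, 11% and 2.86%. Hormad1 (1519 nt) and Stra8 (1803 nt) belong to the second class, and Msh5 (2886 nt) and Prdm9 (3460 nt) to the third. With a trend in length removed from each library, 13 of the 42 other meiosis genes were called higher and 2 lower, and their median was 1.00. The part of length in the difference of any single gene was not tested beyond that.

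**Figure D5:**
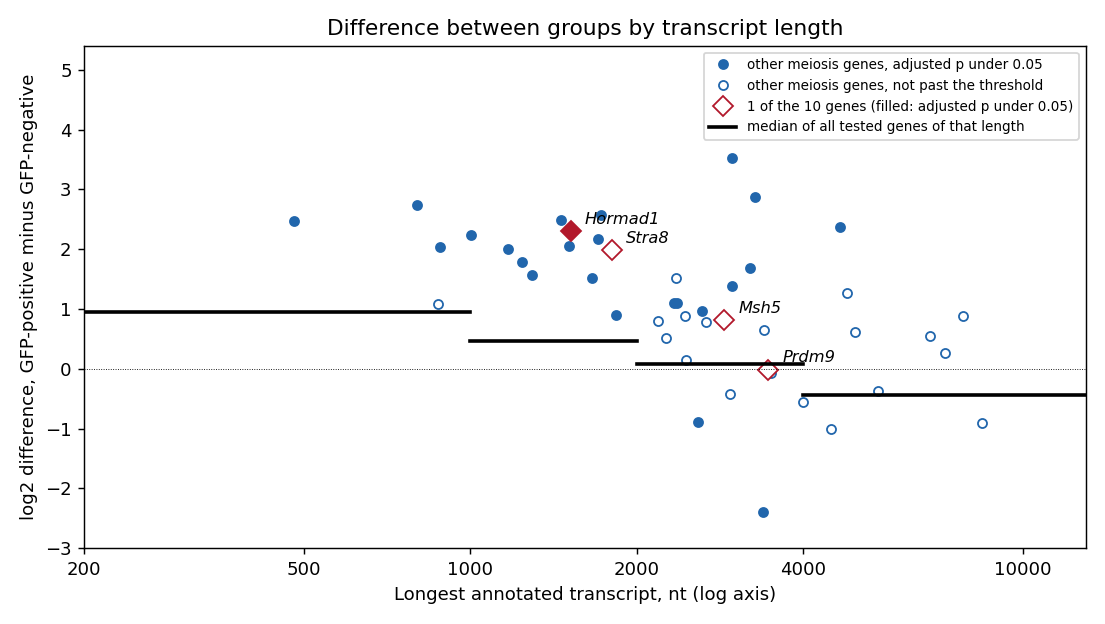
Log2 difference (GFP-positive minus GFP-negative) against the length of the longest annotated transcript (log axis, nt) for the 4 tested genes among the 10 (diamonds) and the other tested meiosis genes (circles), with filled symbols past the threshold. Black bars are the medians of all tested genes in 4 length classes, which run from 0.94 under 1000 nt to -0.44 at 4000 nt and over, and Hormad1 and Stra8 lie above the bar of their class.

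Most tested markers of germ cells moved with the meiosis genes, and Dazl is counted in both. Of 18 listed, 15 were tested, of which 10 rose and 1 fell. The median of the tested markers was 2.01, and by adjusted p the first of them were Tex101 (4.87), Sohlh2 (3.12), Mael (4.56) and Dnd1 (2.95). The marker that fell was Etv5 (-1.35, limma adjusted p = 0.0288). Ret (1.20), Nanos3 (0.92), Kit (0.35) and Uchl1 (-0.90) did not pass. With no filter 5 of 18 were called higher, without GFP-negative M 5 of 15, and 7 rose without any one of GFP-positive 2 or 7 or GFP-negative 9 or 11. All 10 that rose had a GFP-negative mean under 0.5 scaled FPKM, among them Ddx4, at or below 0.0376 in every GFP-negative library. They passed the filter only through the GFP-positive libraries, so among genes that passed they could hardly have shown no difference. The summed level of the list was 132 to 204 scaled FPKM in the GFP-positive and 99.7 to 117 scaled FPKM in the GFP-negative libraries, of which Uchl1, also expressed outside germ cells, made up 18.5 to 97.1 and 91.6 to 98.2 scaled FPKM. Of the late germ cell markers the protamine genes Prm1 and Prm2 and the transition protein gene Tnp2 were listed at 0 in all 6 libraries. Of the 12 listed, 1 was tested and fell, Hspa2 (-2.45). The remaining late markers were below the filter and had positive differences, the largest that of Ldhc (0.69). Ldhc stood at 0.693, 0.264 and 0.324 scaled FPKM in GFP-positive 2, 4 and 7, against 0.0258, 0.0943 and 0.0690 in GFP-negative 9, 11 and M. In bulk RNA more cells of a type and more RNA per cell cannot be told apart, and the part of germ cell transcripts in the differences of the 10 genes was not tested.

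Of 18 Sertoli markers, 17 were tested, 1 rose (Dmrt1) and 2 fell, Sox9 (-1.91) and Gata4 (-1.81). Over all 15095 tested genes 1729 were called lower. With an equal sum of FPKM none of the Sertoli markers rose and 4 fell. The summed level of the 18 markers was 1986 to 3753 scaled FPKM in the GFP-positive and 891 to 3673 scaled FPKM in the GFP-negative libraries. Wt1, Nr5a1, Amh, Clu and Sox9 were above 0 in every library, while Gata1 was listed at 0 in 3. Among markers of other somatic cells none rose. Of 6 myoid markers 2 fell (Myh11 and Actg2), and of 4 tested Leydig markers 1 did (Insl3). Of 2 tested macrophage markers 1 fell (Lyz2), and of 6 fibroblast markers 1 did (Col1a1). Tagln (0.75), Dcn (0.95), Cd68 (0.24), Hsd3b1 (0.18) and Cnn1 (0.12) had positive differences that did not pass, and every other tested one was negative. None of the falls was called without GFP-positive 7, without GFP-negative M or with no filter. With an equal sum of FPKM 3 myoid, 2 Leydig, 1 macrophage and 3 fibroblast markers fell. Without GFP-positive 2, 1 myoid marker was called higher. The libraries held between 8.25 and 11.8 Gb of aligned bases.

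Of the 20 nearest named neighbours of the 10 genes, 10 were tested and 2 were called, a share close to the 25.9% of all tested genes. Rabggtb, beside Msh4, rose by 1.33 (limma adjusted p = 0.0199), while Msh4 itself was below the filter, and Ddx17, beside Dmc1, fell by 1.25 (limma adjusted p = 0.0154). Golph3l, 1263 bases beyond Hormad1, had a log2 difference of 0.60 that did not pass (limma adjusted p = 0.220), and Ctss, on the other side, was at or below 0.326 scaled FPKM in every library. Hagh, 355 bases from Meiob, stood at 6.59, 10.2 and 7.66 scaled FPKM in GFP-positive 2, 4 and 7, against 5.37, 7.34 and 7.99 in GFP-negative 9, 11 and M, although Meiob was listed at 0 in 5 of those libraries. Next to Stra8, Wdr91 had a difference of -0.25 and did not pass.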

How the data were processed

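Total RNA libraries were depleted of ribosomal RNA and made strand-specific by a dUTP method, per the labels' protocols. Trimmomatic, HISAT2 and StringTie were used with the build mm39, per the submitters' processing notes, which give no versions. The deposited tables list the same 153503 transcripts per library with FPKM and mean per-base coverage, per the file headers. Coverage per 1 FPKM gave the aligned bases of a library, 8.25 to 11.8 Gb. Values come without read counts, so no counting intervals are given.

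FPKM was summed over the transcripts of a gene name, and unnamed loci were summed by locus. Unnamed isoforms at named loci (7902 transcripts, 5.36% to 8.16% of a library's FPKM) were left out, and an alternative adds them. Scaling used the median of ratios over 12377 features (mean FPKM of at least 1). Features whose longest transcript was under 200 nt (1201 of 53135) or with a mean under 0.5 scaled FPKM were not tested, which left 15095. log2(scaled FPKM + 0.5) was fitted with limma 3.58.1 (R 4.3.3; lmFit, eBayes with a trend), Benjamini-Hochberg adjusted, at a threshold of 0.05. The steps were tested on simulated data.

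The 10 genes and the 15 gene lists were chosen with earlier results of these data known. From each list the text names up to 4 called genes by adjusted p (otherwise the 2 with the highest mean), and the 3 genes with the highest Pearson r to each called gene of the 10 and the nearest named neighbours. Genes outside this rule are given for their role or level, after their values were seen. Results were recomputed under 17 alternatives, 16 planned and 1 added after seeing the data. Top6bl, Sws1, Rpa4 and Six6os1 were not found under these names in the tables. Plots were made in Python 3.11.15 with matplotlib 3.10.9. Some items are not reported here.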

Additional observations from a re-analysis of the deposited data

Results flagged for a closer look

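An unnamed single-exon transcript of 436 nt lay inside the Spo11 span on the same strand (chromosome 2, 172826229 to 172826664, mm39) and was assembled into the same locus as the annotated Spo11 transcripts. It carries no gene name, so it entered no value of Spo11 summed by name. It stood at 0.768, 0.552 and 1.40 FPKM as deposited in GFP-positive 2, 4 and 7, against 0.360, 0.00617 and 0.0643 FPKM in GFP-negative 9, 11 and M. The means were 0.907 ± 0.441 FPKM in GFP-positive and 0.144 ± 0.190 FPKM in GFP-negative libraries (SD, n = 3 each). This transcript was flagged because every GFP-positive library lay above every GFP-negative one. The lack of overlap was thus fixed by the choice and is not a result. Its library order (GFP-positive 7 highest) differed from that of annotated Spo11 (GFP-positive 2 highest).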

How the results depend on the processing

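Against 1 call among the 10 genes, 0 were called with no filter, 2 with unnamed isoforms added, 0 with the length trend removed, 3 with gene-by-gene library weights (Stra8, Hormad1 and Msh5) and 0 to 1 with 1 library left out. Against 3910 calls over all tested genes, there were 1082 with no filter, 6983 with an equal sum of FPKM, 2260 with the length trend removed, 8317 with library weights and 448 to 5628 with 1 library left out. Against 21 rises among the other meiosis genes, 6 were called with no filter, 13 with an equal sum of FPKM, 13 with the length trend removed and 4 to 20 with 1 library left out. Equal sums moved the median of all tested genes to -0.87, and Hormad1 (1.93) and the other meiosis genes (median 0.24) stood above it. The sign of Prdm9 turned to 0.0570 at a pseudocount of 0.1, 0.0448 with the length trend removed and 0.34 with library weights, and ranged from -0.24 to 0.33 with 1 library left out (0.0592 without GFP-positive 2, and 0.33, below the filter and untested, without GFP-negative 9, its highest library). The cause of these changes was not tested. Hormad1 kept a positive difference under all 17 alternatives (1.58 to 4.12), untested without GFP-positive 2, where Stra8 was the 1 call. The low levels limit precision, since Meiob in GFP-positive 7 and Spo11 in GFP-negative 11 rest on 244 and 116 aligned bases. Library weights by limma's default method did not converge and were not run, and the gene-by-gene method was chosen after seeing the data. No paired analysis was possible because the groups share no replicate numbers.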
